A study of Mus musculus with 6 samples.

Results

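S100 proteins are small calcium-binding proteins of vertebrates that carry a pair of EF-hands, the helix-loop-helix motif that holds a calcium ion. They mostly form dimers, and on binding calcium many of them open a surface that docks other proteins, among them annexins, myosin and scaffold proteins. Most of their genes lie together in the epidermal differentiation complex region of mouse chromosome 3. Described here are 7 of these genes, S100a1, S100a13, S100a16, S100a4, S100a6, S100a11 and S100a10, found by symbol among the 27179 genes of the table. They were chosen with the contrast of these libraries already known, so their values are a description with no p-values, and the count of those past the threshold is given only beside the share of all tested genes. Of the 7 genes, 5 passed the filter on low counts, and S100a16 and S100a4 did not.

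The cells were mouse embryonic stem cells (mESCs), pluripotent cells grown on gelatin with serum and LIF, a cytokine that holds back differentiation. All of them expressed Tfe3-ERT2, in which the transcription factor Tfe3, known for switching on lysosomal genes, is joined to an estrogen receptor domain that keeps the fusion out of the nucleus until 4-hydroxytamoxifen (4OHT) binds. In one group 3 libraries came from cells given 4OHT at 1 µg/mL for 48 h, and in the other 3 came from cells given the ethanol vehicle (EtOH), which carry the same fusion. There was no group of cells without the fusion, so an effect of 4OHT itself and one of the fusion cannot be told apart. Total counts were 4648374 to 6427880 in 4OHT libraries and 4092877 to 4984364 in EtOH libraries. Levels are CPM, that is, counts relative to TMM-scaled library sizes, and 3 counts in 1 library equalled 0.469 to 0.738 CPM. The labels name no separate cultures, so p-values measure the spread between these libraries only, which may be technical. Tfe3, whose counts pool the cells' own gene and the fusion, had 832, 836 and 827 CPM in 4OHT libraries and 1074, 1035 and 1004 CPM in EtOH libraries.

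S100a1 and S100a13 lie head to head: S100a1 (chr3:90511034-90514330) is read on the minus strand and S100a13 (chr3:90514233-90524581) on the plus strand, and their RefSeq ranges on GRCm38.p6 share 98 bases. The GENCODE vM21 models of the pair share no exon base. The strand setting of the counting is not given in the sources used here, so for reads from shared bases the 2 genes cannot be told apart. S100a16 (chr3:90537254-90543151) starts 12673 bases beyond S100a13, S100a4 (chr3:90603770-90606045) a further 60619 bases on, and S100a6 (chr3:90612894-90614414) 6849 bases after that. S100a11 (chr3:93520496-93526288) and S100a10 (chr3:93555117-93564645) form a separate pair 2.91 Mb away, 28829 bases apart. Of the exon bases of S100a4, 51.7% (302 of 584) are shared with Gm42674 on the same strand, so its counts are uncertain.

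RefSeq promoter windows of GRCm38.p6, 250 bases before to 50 after a gene's start, were available for 6 of the 7 genes. They were searched on both strands for CACGTG, the E-box letters, for TCACGTG and GTCACGTG, which contain them and resemble the element bound by MiT/TFE factors, and for TCATGTG. The S100a6 window held GTCACGTG, with its CACGTG beginning at base 15 counted from the start as base 1. The S100a11 window held CACGTG at position -223 but not TCACGTG. The windows of S100a1, S100a13, S100a16 and S100a4 held none of the 4 motifs. CACGTG was in 7.15% of all 32851 windows and in the windows of 12.2% of tested genes, GTCACGTG in 2.25% of windows and 4.97% of tested genes. Shares of tested genes are over the 9635 that have a window, each gene counted once, so windows and genes are unlike units. Counted by gene, CACGTG was in 8.09% of all 27025 genes with a window. TCACGTG was in 3.77% of windows and 7.27% of tested genes, and TCATGTG in 3.77% of windows and 2.45% of tested genes. These matches describe letters in a window and are not binding sites. The S100a6 and S100a11 windows are printed because they hold the motif, with CACGTG in capitals. The S100a13 window is set on a start at base 90514435, inside the RefSeq range given above, which is also where the GENCODE model begins. It is printed because it also contains the S100a1 start at base 90514330, and its capitals mark the 104 bases between these 2 starts.
S100a6 (chr3:90612644-90612943, + strand): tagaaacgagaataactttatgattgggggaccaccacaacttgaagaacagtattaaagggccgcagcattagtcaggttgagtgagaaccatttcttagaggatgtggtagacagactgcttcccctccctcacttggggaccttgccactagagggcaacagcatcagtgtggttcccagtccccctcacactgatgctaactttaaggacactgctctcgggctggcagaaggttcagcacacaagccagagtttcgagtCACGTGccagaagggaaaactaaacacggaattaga
S100a11 (chr3:93520246-93520545, + strand): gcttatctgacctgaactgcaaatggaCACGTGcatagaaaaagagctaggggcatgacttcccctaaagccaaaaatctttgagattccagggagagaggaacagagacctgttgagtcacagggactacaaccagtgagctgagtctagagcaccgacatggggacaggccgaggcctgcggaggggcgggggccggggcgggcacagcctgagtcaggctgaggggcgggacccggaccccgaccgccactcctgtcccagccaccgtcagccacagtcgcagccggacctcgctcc
S100a13 (chr3:90514185-90514484, + strand): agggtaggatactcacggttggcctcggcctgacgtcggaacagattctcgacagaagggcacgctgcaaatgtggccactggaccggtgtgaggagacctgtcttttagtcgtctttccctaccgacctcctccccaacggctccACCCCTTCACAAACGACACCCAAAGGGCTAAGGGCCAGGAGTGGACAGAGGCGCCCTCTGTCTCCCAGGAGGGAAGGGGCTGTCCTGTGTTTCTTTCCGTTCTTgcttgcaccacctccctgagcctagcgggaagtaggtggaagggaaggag

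S100a13 and S100a1 had the largest folds of the 7 genes. S100a13, known for its part in the release of the growth factor FGF1 from cells without a signal peptide, had 104, 122 and 148 counts in 4OHT libraries and 10, 6 and 14 in EtOH libraries. In CPM these were 22.6, 22.0 and 23.1 in 4OHT and 2.01, 1.36 and 3.44 in EtOH. Every 4OHT library lay far above every EtOH library, and the EtOH counts were close to the floor. The fold was 10.1 (log2 fold change 3.34, SE 0.22), rank 4 among the 12345 genes tested, and 8.49 to 13.3 over the alternatives tried.

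S100a1, known in heart muscle for its action on calcium release and uptake, had 57, 73 and 84 counts in 4OHT libraries and 9, 8 and 4 in EtOH libraries. Its levels were 12.4, 13.2 and 13.1 CPM in 4OHT and 1.81, 1.81 and 0.984 CPM in EtOH. The groups did not overlap, and the fold was 8.28 (log2 fold change 3.05, SE 0.27), rank 6. Counts of S100a13 over those of S100a1 were 1.82, 1.67 and 1.76 in 4OHT libraries and 1.11, 0.75 and 3.50 in EtOH libraries, where few counts stand behind each ratio. The filter's cutoff was 2.08 CPM, which no EtOH library reached for S100a1 and 1 EtOH library reached for S100a13, while every 4OHT library was above it for both genes.

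S100a6, or calcyclin, is a partner of annexins and of the Cacybp protein. Its levels were 115.9, 118.7 and 112.2 CPM in 4OHT libraries and 46.1, 43.6 and 49.2 CPM in EtOH libraries. The 3 libraries of each group stayed close together, and the fold was 2.50 (log2 fold change 1.32, SE 0.07). S100a11, a partner of annexin A1 at membranes, had 75.7, 74.7 and 73.6 CPM in 4OHT libraries and 43.5, 50.6 and 50.4 CPM in EtOH libraries. Its groups also did not overlap, at a fold of 1.55 (log2 fold change 0.64, SE 0.08).

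S100a10, or p11, binds annexin A2 as a tetramer and has lost calcium binding. It had 88.1, 94.5 and 86.1 CPM in 4OHT libraries and 74.5, 87.0 and 82.9 CPM in EtOH libraries. Here the groups overlapped, the fold was 1.10 (log2 fold change 0.14, SE 0.07), and S100a10 was the one tested member whose libraries did not separate by group. S100a16 had 4, 8 and 8 counts in 4OHT libraries and 5, 9 and 5 in EtOH libraries. S100a4, a partner of non-muscle myosin known from moving and metastatic cells, had 0, 4 and 1 counts in 4OHT libraries and 1, 2 and 2 in EtOH libraries. Summed over a group, S100a16 had 20 counts in 4OHT (95% Poisson interval 12.2 to 30.9) and 19 in EtOH (11.4 to 29.7), and S100a4 had 5 in each (1.62 to 11.7), intervals that cover counting error only. Fitted without the filter, the log2 fold change was -0.22 (SE 0.54) for S100a16 and -0.30 (SE 1.13) for S100a4. No difference of either gene was detected.

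Of the 5 members tested, 4 were higher in 4OHT at an adjusted p under 0.05 (edgeR) and 0 were lower, beside 42.0% of all tested genes that were called in either direction, 21.4% higher and 20.6% lower. In the same 4 genes the groups did not overlap, with every 4OHT library above every EtOH library, which held for 25.1% of all tested genes (48.8% for no overlap in either direction). Among the 4, S100a1 and S100a13 passed the filter only through their 4OHT libraries, so their calls give no support. Nothing is read from these counts, because the genes were chosen on this contrast. The folds ran from 1.10 to 10.1, so the 5 genes varied widely among themselves. Of the 5 tested members, 4 were called and at least 1.5-fold higher, and 3 were called and at least 2-fold higher. The shares of all tested genes called and that much higher were 7.85% and 2.88%. For the same reason nothing is read from these counts either.

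**Figure D1:**
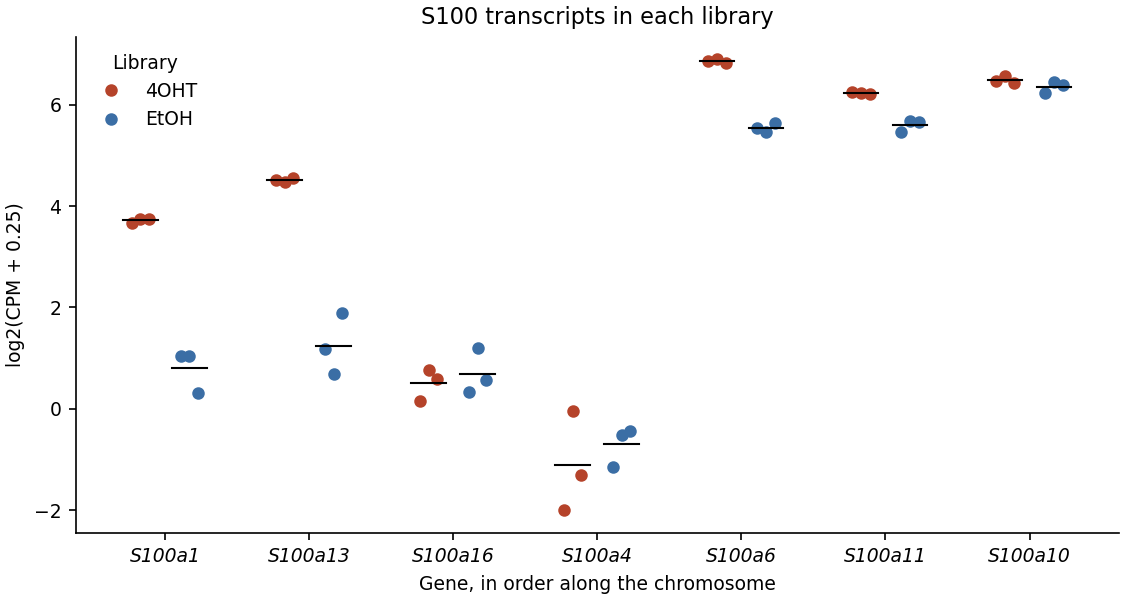
Level of the 7 S100 genes in each library, as log2(CPM + 0.25), in order along the chromosome (points, libraries; lines, group means; 4OHT left of EtOH). S100a13 sits at 22.0 to 23.1 CPM in 4OHT and 1.36 to 3.44 in EtOH, while S100a10 overlaps between the groups.

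**Figure D2:**
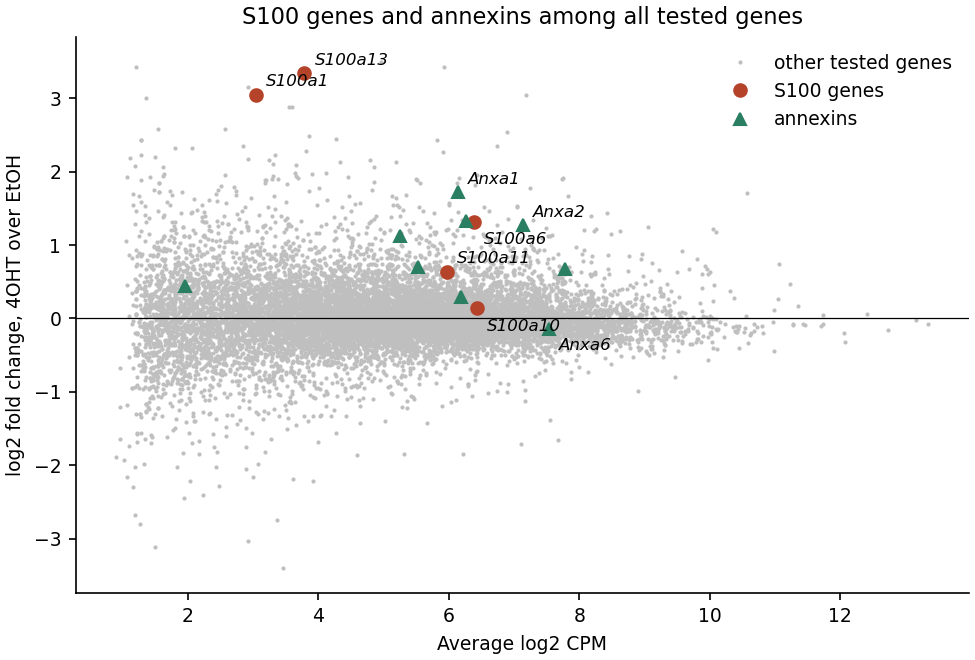
Log2 fold change of 4OHT over EtOH (vertical) against the average log2 CPM (horizontal) of each tested gene, with the 5 tested S100 genes as circles and annexins as triangles. S100a13 and S100a1 stand at 3.34 and 3.05 and S100a10 at 0.14, while the median of all tested genes is -0.00.

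Levels of different genes were compared per kilobase of the gene length deposited beside the counts. In 4OHT libraries S100a6 was highest at 161 ± 4.55 CPM per kb (SD, n = 3), followed by S100a11 at 148 ± 2.16 and S100a10 at 138 ± 6.77. The ranges of these 3 genes, 156 to 165, 146.0 to 150.3 and 132 to 145.4, did not overlap. S100a13 followed at 31.6 ± 0.780 CPM per kb and S100a1 at 21.0 ± 0.725. S100a16 and S100a4 were at 1.45 CPM per kb or less in every 4OHT library and 1.92 or less in every EtOH library. In EtOH libraries S100a10 was highest at 125 ± 9.81 CPM per kb, then S100a11 at 95.6 ± 8.06 and S100a6 at 64.4 ± 3.89, again with no overlap. S100a13 at 3.18 ± 1.49 and S100a1 at 2.50 ± 0.776 overlapped there. S100a6 over S100a10 was 1.19, 1.14 and 1.18 in 4OHT libraries and 0.560, 0.453 and 0.537 in EtOH libraries. With GENCODE vM21 exon lengths, an alternative chosen after seeing the data in which S100a6 has 1367 bases in place of 719 and S100a10 has 1212 in place of 650, S100a11 came first in both groups.

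The 7 genes together had 317 ± 7.93 CPM in 4OHT libraries and 182 ± 10.8 CPM in EtOH libraries (SD, n = 3 each), a ratio of 1.74. S100a6 made up 51.3% of that difference in CPM, S100a11 19.6%, S100a13 15.02%, S100a1 8.40% and S100a10 5.98%. S100a6 took 32.1 ± 0.206% of the summed level per kilobase in 4OHT and 22.0 ± 1.80% in EtOH, and S100a10 took 27.5 ± 0.704% in 4OHT and 42.7 ± 1.30% in EtOH. S100a13 took 6.31 ± 0.307% in 4OHT and 1.08 ± 0.479% in EtOH. These shares rest on the deposited gene lengths. With GENCODE vM21 exon lengths S100a6 had 84.8, 86.8 and 82.0 CPM per kb in 4OHT libraries, below S100a11 at 148, 146 and 144.

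**Figure D3:**
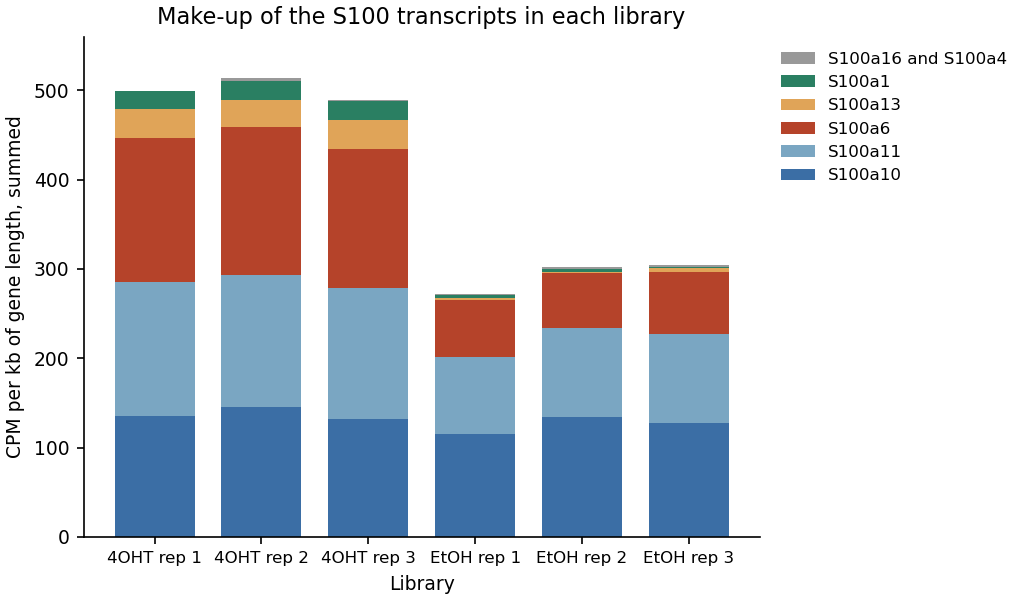
Stacked levels of the S100 genes in each library, in CPM per kb of deposited gene length (bars, libraries, 4OHT left of EtOH; colours, genes). The bars reach 489.5 to 513.6 in 4OHT and 272 to 305 in EtOH, and S100a6 takes 32.1% of them in 4OHT and 22.0% in EtOH.

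Neighbouring genes were taken as every RefSeq gene within 250 kb of a member, and 11 were tested. Of these 2 were higher in 4OHT, 1 was lower and 8 did not pass, beside 21.4% of all tested genes higher and 20.6% lower. Their median log2 fold change was 0.02 beside -0.00 over all tested genes. Chtop, which encodes an mRNA export factor and lies 1507 bases from S100a1, had 196.5 ± 0.847 CPM in 4OHT and 197.0 ± 9.60 CPM in EtOH (log2 fold change -0.00, edgeR adjusted p = 0.98). Tchh, which encodes the hair protein trichohyalin with an S100-like start, had 17.5 ± 2.54 CPM in 4OHT and 9.57 ± 3.37 CPM in EtOH, a 1.79-fold rise (edgeR adjusted p = 6.7e-06). Npr1, a natriuretic peptide receptor, rose 1.40-fold (edgeR adjusted p = 3.2e-05). Ilf2, an RNA-binding protein, averaged 206 ± 10.0 CPM in 4OHT and 236 ± 14.8 CPM in EtOH, and was 1.15-fold lower in 4OHT (edgeR adjusted p = 9.3e-05). The nearest tested gene beyond S100a6, Crct1, lies 2399791 bases off. It had 4.01 ± 1.09 CPM in 4OHT and 0.673 ± 0.0671 CPM in EtOH (log2 fold change 2.58, SE 0.46). The EtOH level of Crct1 lay below the filter's cutoff of 2.08 CPM. It was thus tested only through its 4OHT libraries, and no p-value is given. Beyond S100a10, Them4 had a log2 fold change of 0.20 (edgeR adjusted p = 0.53).

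**Figure D4:**
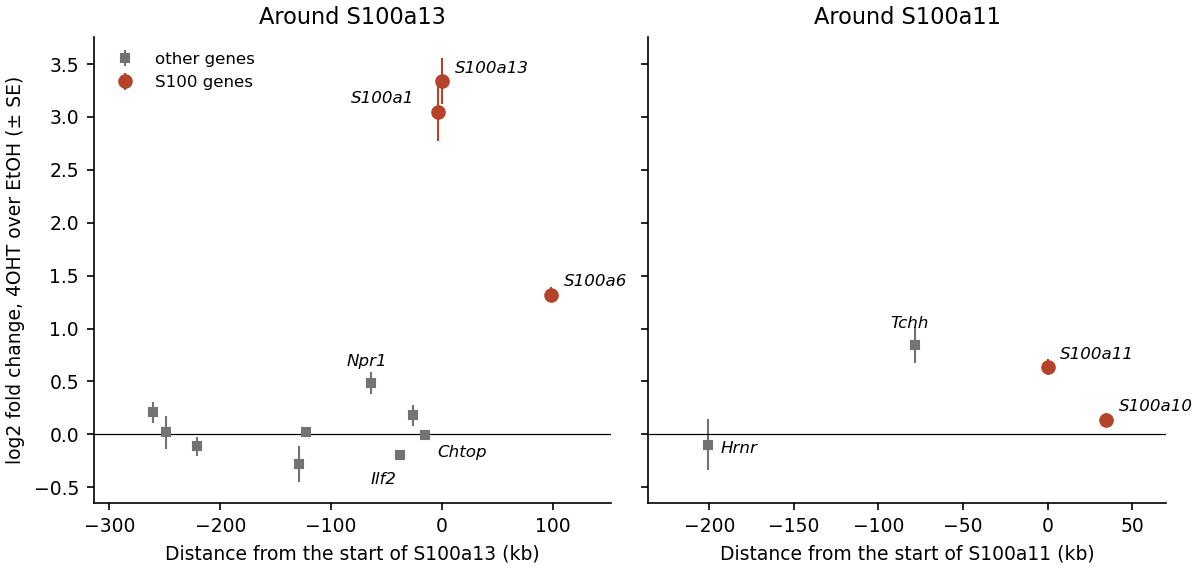
Log2 fold change, 4OHT over EtOH, of tested genes against distance in kb from the start of S100a13 (left) and of S100a11 (right); circles are S100 genes, squares other genes, and bars ± SE. S100a1 and S100a13 stand above 3 while their neighbour Chtop sits at -0.00.

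Of 17 other genes of the S100 family or with an S100-like start only 2 were tested. Tchh was higher in 4OHT as given above, and Hrnr, a skin barrier protein, had a log2 fold change of -0.10 (edgeR adjusted p = 0.78). Of the 10 S100 genes on that list the largest summed count over the 6 libraries was 7, for S100a3, and S100a5, S100a8, S100a9, S100g and S100z had 0. S100a2, a chromosome neighbour outside that list, also had 0.

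Annexins, which bind membranes when calcium rises and form complexes with several S100 proteins, mostly rose. Of 12 annexin genes 9 were tested, 7 were higher in 4OHT, 1 was lower and 1 did not pass. Their median log2 fold change was 0.69. Over all tested genes the median was -0.00, with 21.4% called higher and 20.6% lower. Anxa1, partner of S100a11, had 102, 106 and 102 CPM in 4OHT libraries and 30.2, 30.7 and 33.5 CPM in EtOH libraries, a 3.31-fold rise (log2 fold change 1.72, SE 0.08, edgeR adjusted p = 2.9e-57). Anxa2, partner of S100a10, had 196, 188 and 196 CPM in 4OHT and 81.0, 78.4 and 80.9 CPM in EtOH, a 2.41-fold rise (edgeR adjusted p = 2.2e-62). No library of either gene overlapped with the other group. Anxa3 rose 2.51-fold, Anxa5 2.19-fold, Anxa4 1.62-fold, Anxa7 1.59-fold and Anxa11 1.22-fold (edgeR adjusted p of 0.00029 or less each). Anxa6, with 175 ± 7.59 CPM in 4OHT and 195 ± 8.23 CPM in EtOH, was 1.11-fold lower in 4OHT (edgeR adjusted p = 0.0057). That call was lost without 4OHT replicate 1 and without EtOH replicate 3 (adjusted p = 0.071 each). Anxa8 had 4.01 ± 1.36 CPM in 4OHT and 2.94 ± 0.831 CPM in EtOH (edgeR adjusted p = 0.29).

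**Figure D5:**
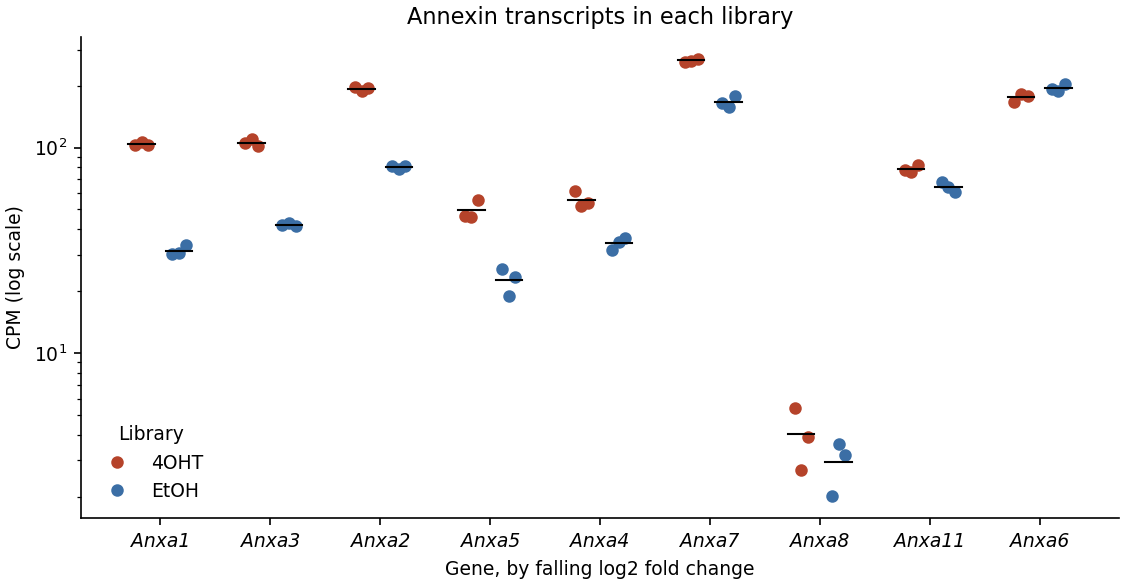
CPM of the tested annexin genes in each library (points, libraries; lines, group means; log axis; 4OHT left of EtOH). Anxa1 averages 104 CPM in 4OHT and 31.5 in EtOH, and Anxa6 175 in 4OHT and 195 in EtOH.

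Relative to its S100 partner, annexin levels per kilobase differed between the groups. Anxa2 over S100a10 was 1.05, 0.940 and 1.08 in 4OHT libraries and 0.514, 0.426 and 0.462 in EtOH libraries. Anxa1 over S100a11 was 0.502 ± 0.0127 in 4OHT and 0.237 ± 0.0160 in EtOH, whereas Anxa11 over S100a6 was 0.205 ± 0.0137 in 4OHT and 0.418 ± 0.0423 in EtOH (SD, n = 3 each). These ratios show unequal change and carry no test.

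Other partners moved in both directions. Of 22 genes for reported S100 partners 14 were tested, 4 were higher in 4OHT and 4 lower, with a median log2 fold change of 0.04. For comparison, 21.4% of all tested genes were called higher and 20.6% lower. Ahnak, a giant scaffold protein bound by the S100a10 and annexin A2 complex, had 746, 724 and 752 CPM in 4OHT libraries and 313, 315 and 308 CPM in EtOH libraries, a 2.37-fold rise (edgeR adjusted p = 6.0e-93). Myh9, the heavy chain of non-muscle myosin IIA and a target of S100a4, rose 1.75-fold (edgeR adjusted p = 2.2e-67). Atp2a2, the calcium pump of the endoplasmic reticulum, rose 1.17-fold (edgeR adjusted p = 6.2e-08), and Ryr2, a calcium release channel, 1.39-fold (edgeR adjusted p = 0.043). The Ryr2 call was lost without 4OHT replicate 2 or 3 or EtOH replicate 1 or 3, without the filter, with the replicate block (edgeR adjusted p = 0.055) and in DESeq2. Cacybp, which binds S100a6, averaged 411 ± 5.25 CPM in 4OHT and 556 ± 5.62 CPM in EtOH, and was 1.35-fold lower in 4OHT (edgeR adjusted p = 6.9e-25). Stip1, a co-chaperone, was 1.24-fold lower, Trp53, the p53 gene, 1.12-fold lower and Ppp5c, a phosphatase, 1.11-fold lower (edgeR adjusted p = 2.3e-16, 0.00013 and 0.021). The Ppp5c call was lost without 4OHT replicate 3, without EtOH replicate 1 or 2 and in DESeq2. Fgf1, the cargo of S100a13, did not pass the filter and was singled out after its counts were seen, which were 0, 4 and 4 in 4OHT libraries and 8, 11 and 11 in EtOH libraries.

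Other genes with EF-hands moved in both directions. Of 38 tested, 11 were higher in 4OHT, 5 were lower and 22 did not pass, with a median log2 fold change of 0.04. Among all tested genes 42.0% were called, 21.4% higher and 20.6% lower, so nothing particular to this list is read from its count. Capn2, a calcium-activated protease, rose 1.52-fold, Nucb1, a Golgi calcium-binding protein, 1.29-fold and Calu, a calcium-binding protein of the secretory pathway, 1.17-fold (edgeR adjusted p = 1.4e-21, 3.8e-07 and 1.8e-06). The 5 lower genes were Cetn3 of the centrosome (1.30-fold), Rcn3 (1.33-fold), Necab3 (2.45-fold), Hpca (3.13-fold) and Rcn1 (1.19-fold). Hpca had 1, 3 and 9 counts in 4OHT libraries and 14, 10 and 9 in EtOH libraries. Its log2 fold change of -1.65 became -2.64 without 4OHT replicate 3. Only the EtOH libraries of Hpca reached the filter's cutoff of 2.08 CPM. The call of Rcn1 was lost without 4OHT replicate 3 and without EtOH replicate 2, and in DESeq2.

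Calcium channels, pumps and stores were tested in 19 of 26 genes. Of these 10 were higher in 4OHT, 0 were lower and 9 did not pass, with a median log2 fold change of 0.24. All tested genes had a median of -0.00, with 21.4% called higher and 20.6% lower. Itpr3, a release channel of the endoplasmic reticulum, averaged 158 ± 2.06 CPM in 4OHT and 90.2 ± 3.73 CPM in EtOH, a 1.75-fold rise (edgeR adjusted p = 4.3e-33). Its relative Itpr2 averaged 11.97 ± 0.761 CPM in 4OHT and 1.35 ± 0.414 CPM in EtOH, an 8.90-fold rise. Itpr2 had 5, 8 and 5 counts in EtOH libraries, all below the filter's cutoff of 2.08 CPM. It was thus tested only through its 4OHT libraries, and no p-value is given. Orai2, with 16, 13 and 27 counts in 4OHT libraries and 11, 7 and 6 in EtOH libraries, also passed the filter only through 4OHT. The 10 higher genes and the median include Itpr2 and Orai2. Mcoln1, a calcium-releasing channel of lysosomes, rose 1.76-fold and Pkd2, a cation channel of cilia and the endoplasmic reticulum, 1.32-fold (edgeR adjusted p = 4.9e-12 and 3.5e-07).

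Tested genes with the pattern most like that of S100a13, by the root mean square difference of log2 CPM centred on the EtOH mean over the 6 libraries, were Aqp3 (0.312), Fabp3 (0.399), Stard8 (0.566), Itpr2 (0.571) and Lrrc15 (0.624), among 11395 genes compared. They encode a water and glycerol channel, a fatty acid carrier, a RhoGAP with a lipid-binding domain, the channel named above and a membrane protein with leucine-rich repeats. Their folds ran from 7.34 for Lrrc15 to 11.3 for Stard8. This likeness is a description, chosen from the same contrast.

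Markers of other cell types changed unevenly, beside 21.4% of all tested genes called higher and 20.6% lower. The 8 markers of pluripotent cells summed to 4714 to 4723 CPM in 4OHT libraries and 4483 to 4648 CPM in EtOH libraries, with 4 of 8 higher and 2 lower in 4OHT. Pou5f1, Sox2 and Nanog averaged 697, 549 and 283 CPM in 4OHT and 791, 556 and 258 CPM in EtOH. Esrrb was 1.56-fold, Klf4 1.39-fold, Zfp42 1.12-fold and Nanog 1.10-fold higher, and Tdgf1 was 1.28-fold and Pou5f1 1.14-fold lower (edgeR adjusted p of 0.0041 or less each). Trophectoderm markers summed to 1126 to 1166 CPM in 4OHT and 536 to 561 CPM in EtOH. Of 12 markers 9 were tested and all 9 rose. Hand1, among these 9, had 3, 9 and 8 counts in EtOH libraries, all below the filter's cutoff of 2.08 CPM. Hand1 was thus tested only through its 4OHT libraries. Krt8 and Krt18 were the largest parts of that sum, averaging 489 and 371 CPM in 4OHT and 219 and 161 CPM in EtOH. Of the defining trophectoderm genes, Elf5 had 0, 1 and 0 counts in 4OHT libraries and 0 in every EtOH library. Cdx2 had 6, 8 and 12 counts in 4OHT and 14, 12 and 5 in EtOH. Eomes had 57, 85 and 74 counts in 4OHT and 25, 23 and 19 in EtOH. Primitive endoderm markers summed to 509 to 531 CPM in 4OHT and 413 to 432 CPM in EtOH. Of 6 tested 2 were higher, Col4a1 (1.94-fold) and Col4a2 (2.14-fold), and 1 was lower, Lamb1 (1.47-fold). Gata4 was not called, and Sox17 had 3, 2 and 1 counts in 4OHT and 2, 2 and 1 in EtOH. Gata6, which did not pass the filter, had 6, 14 and 16 counts in 4OHT and 10, 8 and 1 in EtOH. Fibroblast and mesenchyme markers summed to 295 to 322 CPM in 4OHT and 229 to 244 CPM in EtOH, with 2 of 7 tested higher. These 2 were Acta2, averaging 65.3 CPM in 4OHT and 33.2 in EtOH, and Tagln, averaging 170 and 136 CPM. Col1a2 averaged 3.91 CPM in 4OHT and 2.48 in EtOH and was not called. Col1a1, also not called, averaged 10.3 CPM in 4OHT and 10.6 in EtOH. The part of these markers in the S100 and annexin results was not tested. In bulk RNA a change in the number of cells of a type and a change in RNA per cell cannot be told apart.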

How the data were processed

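RNA was sequenced from 6 libraries made with a stranded mRNA kit, per the labels. The authors deposited unnormalized counts, 1 column per library, beside a length for every gene. The submitters' processing notes name fastp, STAR, featureCounts and mm10 with no roles. Versions, annotation, strand setting and treatment of multiply mapped reads were not given in the sources used here. The 7 members and the gene lists were chosen with earlier results of these data known.

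Of 27179 genes, 12345 passed filterByExpr (minimum count 10, total 15). Groups were compared with edgeR 4.0.16 in R 4.3.3 (TMM, robust quasi-likelihood fit, Benjamini-Hochberg adjustment over all tested genes, threshold 0.05). Folds are unshrunk coefficients (4OHT over EtOH), with SE as their absolute log2 value over the root of F. The fit was tested on simulated data. No 2 libraries of a group agreed within counting error. Named genes were all members, from each list the called genes with the smallest p up to 4 and those in counts of 5 or fewer, all tested annexins, the nearest tested neighbours and the 5 genes most like S100a13. Positions and promoters are RefSeq, GRCm38.p6, and exon overlap is GENCODE vM21. Alternatives were DESeq2 1.42.0 size factors and test, no filter, a replicate block, leaving out each library, and levels without gene length. Python 3.11.15 with pandas 2.3.3 and matplotlib 3.10.9 drew the plots.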

Additional observations from a re-analysis of the deposited data

How the results depend on the processing

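As a description, the count of S100 genes past the threshold and higher in 4OHT was 4 in every alternative except without EtOH replicate 2, where S100a10 also passed (log2 fold change 0.19). Same-numbered libraries shared no clear deviation (correlations of same-numbered deviations 1.4e-05, -0.018 and -0.035), which cannot show whether a number marks a shared culture. With the replicate block 2585 genes were higher and 2497 lower in 4OHT, against 2643 and 2546. Other settings gave 2603 and 2579 (DESeq2 size factors), 2618 and 2364 (no filter) and 1926 and 1761 (DESeq2 test), and leaving out a library gave 2306 to 2544 and 2129 to 2407. The count of lower annexins was 0 to 1 when a library was left out. The order of the 7 genes kept 5 at the same rank in 4OHT by CPM without length and in both groups with GENCODE vM21 exon length, which was chosen after seeing the data, and 5 to 7 in EtOH when a library was left out. Chtop, near 0 in every fit, changed sign without a filter (0.0045) and when single libraries were left out (-0.033 to 0.034). Calls were also lost under an alternative for Ryr2, Orai2, Ppp5c, Rcn1, Rcn2, Trpm7 and Anxa6. The causes were not tested. Counts of under 15 per EtOH library limit the folds of S100a1 and S100a13, and S100a4 and S100a16 did not pass the filter.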
